A study of Ovis aries with 9 samples.

Results

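The protein kinase C (PKC) genes measured here are PRKCA, PRKCB, PRKCD, PRKCE, PRKCH, PRKCQ, PRKCI and PRKCZ, in hypothalamus RNA of Dolang ewes around the first estrus. The members were taken by gene symbol: each RefSeq mRNA (identifiers starting with NM or XM) whose sheep gene is 1 of these 8 belongs to the family. The rule found 8 of 21284 genes and 57 of 76684 RefSeq mRNAs in a table of 115108 transcripts. A gene sum is the FPKM of all its RefSeq mRNAs added up, where FPKM scales the fragments of a transcript by its length and by the library's mapped fragments. Each of the 9 libraries is 1 ewe. Prepuberty is 3 ewes aged 120 days, puberty is 3 ewes aged 130 days and postpuberty is 3 ewes aged 150 days. All ewes were healthy, of 1 breed, kept alike at the same station and killed with pentobarbital sodium in autumn. Stage was judged from behaviour and the vulva, with puberty as the first estrus signs such as accepted mounting, so stage and age moved together and cannot be told apart.

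PKC enzymes are serine and threonine kinases that carry receptor signals into the cell. When a hormone or transmitter activates a Gq-coupled receptor, phospholipase C splits a membrane lipid into inositol trisphosphate, which releases calcium, and diacylglycerol, which holds PKC at the membrane. Conventional isozymes (PRKCA, PRKCB) need calcium and diacylglycerol, the calcium-independent isozymes (PRKCD, PRKCE, PRKCH, PRKCQ) need diacylglycerol alone, and the atypical isozymes (PRKCI, PRKCZ) need neither and work in polarity complexes. In the reproductive axis, kisspeptin and gonadotropin-releasing hormone receptors both signal through Gq and PKC.

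One library stood apart from the rest before any comparison. Puberty 2 had a total of 599726 FPKM against 359588 to 398109 in the other 8 libraries, and 42441 transcripts above 0 against 67824 to 71787. It listed 13 of the 57 PKC mRNAs above 0, where the other libraries listed 26 to 38. Of 15 hypothalamic marker genes, 8 had a mean of at least 0.5 FPKM, and GNRH1 and FEZF1 were listed at 0 in all 9 libraries. The summed level of these markers ran from 13.4 FPKM in Prepuberty 2 to 154 in Prepuberty 1, and that of choroid plexus markers from 9.71 FPKM in Prepuberty 2 to 7630 in Puberty 3. Of the hypothalamic markers, CRH alone had 118 FPKM in Prepuberty 1, against 0.392 to 7.14 in the other libraries. In bulk tissue, fewer cells of a type and less RNA per cell cannot be told apart. The limma comparisons of the 8 genes are given with and without Puberty 2. Other stage results include it unless stated.

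**Figure D1:**
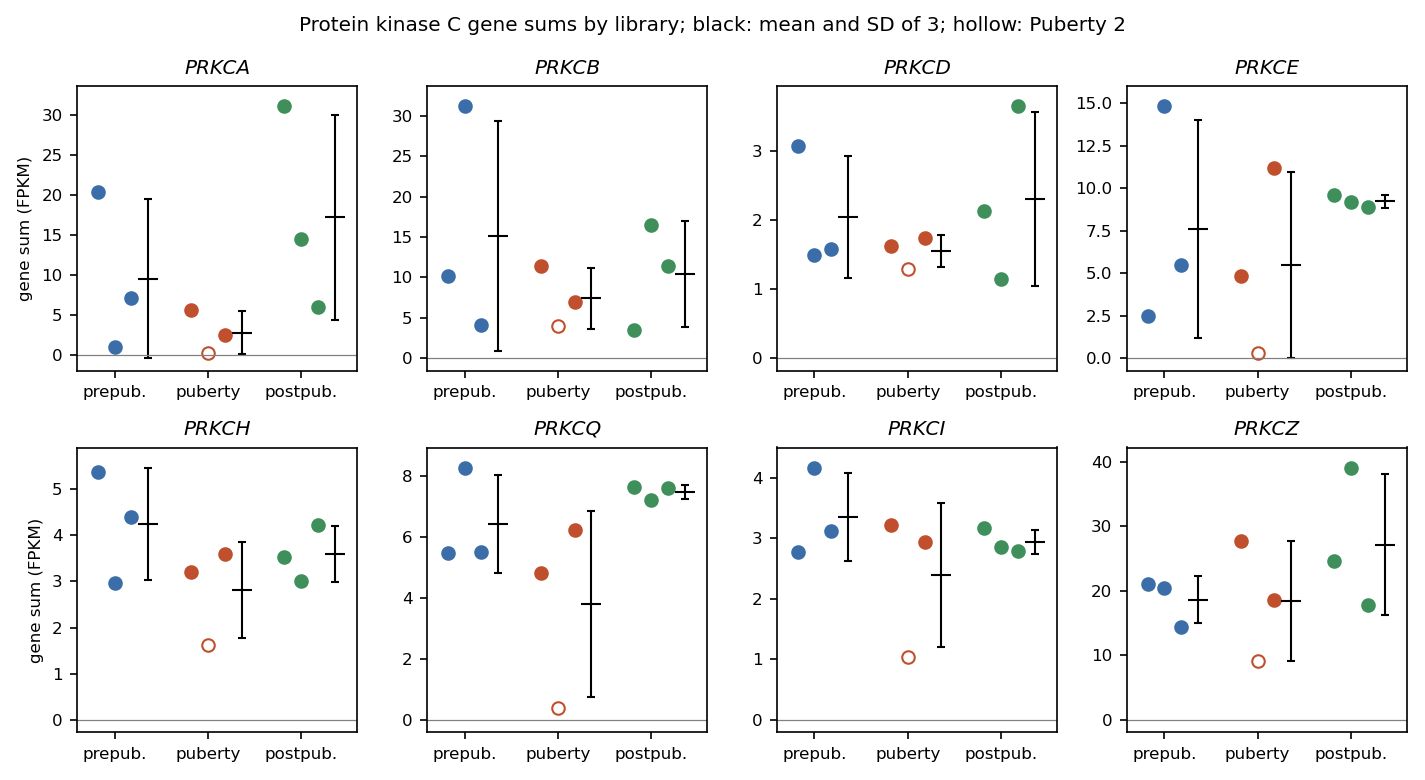
Gene sum in FPKM of each PKC gene (vertical axis, a scale per gene) in every library, by stage (horizontal axis), with the mean and SD of the 3 libraries in black and Puberty 2 as a hollow circle. Puberty 2 is the lowest point for 6 of the 8 genes, and the postpuberty circles of PRKCE and PRKCQ lie close together at 8.89 to 9.62 and 7.22 to 7.63 FPKM.

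All 8 genes were expressed. Since FPKM is per length, levels can be set side by side. Averaged over the 9 libraries, PRKCZ had the highest gene sum at 21.4 FPKM, followed by PRKCB at 11.0, PRKCA at 9.79, PRKCE at 7.43, PRKCQ at 5.91, PRKCH at 3.55, PRKCI at 2.90 and PRKCD at 1.97 FPKM. The order was the same without Puberty 2. The ranges of every pair of neighbours in this order overlapped over the 9 libraries. Within single ewes, PRKCZ was above PRKCB in 8 of 9 libraries and PRKCQ above PRKCH in 8 of 9, the exception being Puberty 2 for the latter, and the other neighbours kept their order in 5 to 7 of 9. Within prepuberty and within postpuberty the levels of PRKCQ lay above those of PRKCH without overlap, and within postpuberty PRKCE also lay above PRKCQ.

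The 8 genes together summed to 70.8, 84.2 and 45.8 FPKM at prepuberty, 62.3, 17.8 and 53.6 at puberty and 85.4, 93.5 and 62.3 at postpuberty. The stages overlapped, and Puberty 2 had the lowest sum. PRKCZ was the leading gene in 7 libraries, PRKCB led in Prepuberty 2 and PRKCA in Postpuberty 1. The atypical isozymes made up 29.1% to 38.3% of the family sum at prepuberty, 40.1% to 56.6% at puberty and 32.6% to 44.8% at postpuberty. Their share was thus higher in each puberty library than in each prepuberty library, with or without Puberty 2. The class shares were described and not tested, and this separation was seen among several classes and comparisons. Their summed level did not separate, with 23.9, 24.5 and 17.5 FPKM at prepuberty and 30.9, 10.1 and 21.5 at puberty. The conventional isozymes held 24.6% to 43.1% at prepuberty, 17.5% to 27.2% at puberty and 27.8% to 40.6% at postpuberty. Their postpuberty shares were all above their puberty shares, by a narrow margin, and their prepuberty and puberty shares overlapped. Shares of 1 sum are tied to each other, so these are not separate results.

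**Figure D2:**
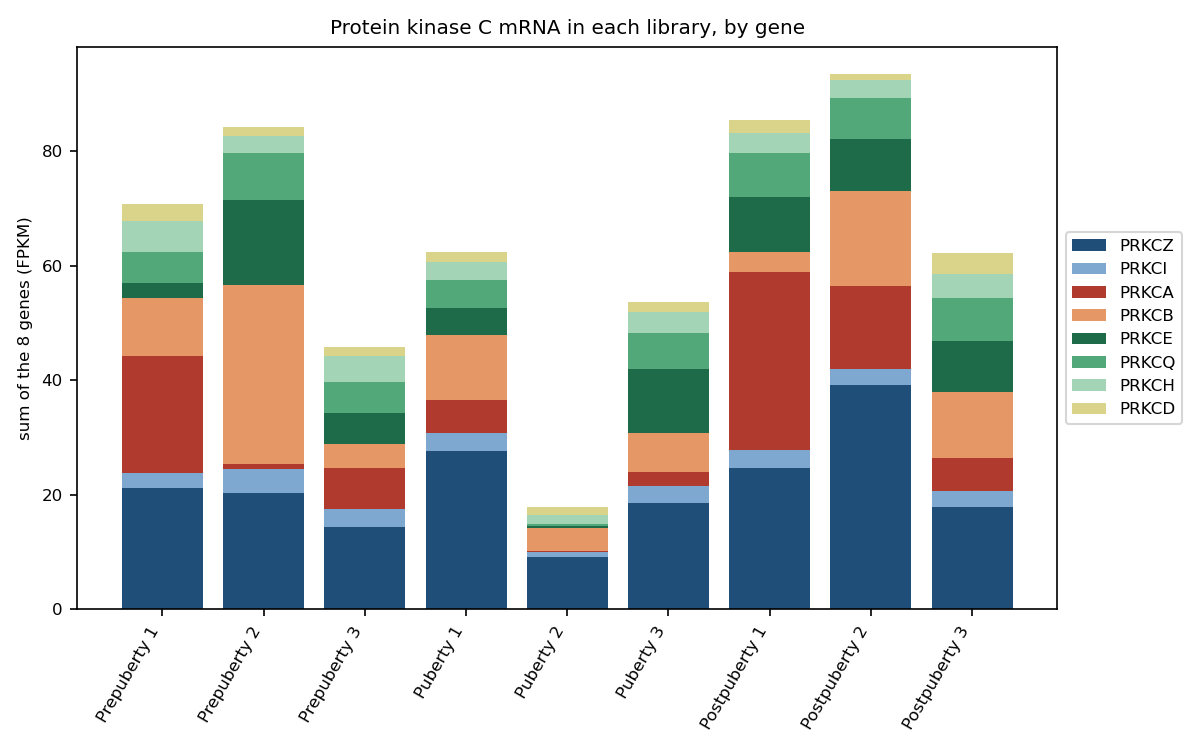
Stacked bars give the FPKM sum of the 8 PKC genes in each library (vertical axis), coloured by gene, with the atypical genes at the base, the conventional genes in red and orange and the calcium-independent genes above. The bar of Puberty 2 reaches 17.8 FPKM, while the others reach 45.8 to 93.5 FPKM.

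PRKCA encodes PKC alpha, the conventional isozyme found in most tissues. The gene lies on chromosome 11 from 61845443 to 62134300 of ARS-UI_Ramb_v3.0 and had 3 RefSeq mRNAs. Its gene sums were 20.4, 0.882 and 7.12 FPKM at prepuberty, 5.60, 0.156 and 2.45 at puberty and 31.1, 14.5 and 5.92 at postpuberty. The 3 postpuberty libraries were all above the 3 puberty libraries, although the lowest of the former and the highest of the latter were close. Prepuberty overlapped both. The means were 9.46 ± 9.96, 2.74 ± 2.73 and 17.2 ± 12.8 FPKM (SD, n = 3 each), and without Puberty 2 the puberty mean was 4.03 FPKM (n = 2).

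The PRKCA sum came from different mRNAs in different ewes. XM_060395902.1 had 4.92, 0.858 and 6.57 FPKM at prepuberty, 5.55, 0 and 1.49 at puberty and 17.0, 14.4 and 5.89 at postpuberty, and it led in 7 of 9 libraries. XM_060395901.1 reached 15.4 and 14.0 FPKM in Prepuberty 1 and Postpuberty 1, then 0.890 and 0.501 in Puberty 3 and Prepuberty 3, and stayed at or below 0.0108 in the other 5. It thus held 75.8% of the sum in Prepuberty 1, 45.0% in Postpuberty 1 and 36.3% in Puberty 3. In Puberty 2 both were listed at 0, and XM_060395903.1 alone made up the sum at 0.156 FPKM.

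PRKCB encodes PKC beta, a conventional isozyme with high levels in forebrain neurons and in B cells. Its locus is chromosome 24 from 22049759 to 22424434, with 2 RefSeq mRNAs. Its gene sums were 10.2, 31.2 and 4.12 FPKM at prepuberty, 11.4, 3.96 and 6.91 at puberty and 3.51, 16.5 and 11.4 at postpuberty. The stages overlapped in every comparison, with Prepuberty 2 far above the rest and Postpuberty 1 the lowest. The means were 15.2 ± 14.2, 7.41 ± 3.73 and 10.5 ± 6.56 FPKM.

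The 2 PRKCB mRNAs traded the lead. XM_027961512.2 held 69.5% to 74.0% of the sum in Prepuberty 2, Puberty 1 and Postpuberty 2. In Puberty 2 it held 100%, as XM_027961511.2 was listed at 0. In the other 5 libraries XM_027961511.2 led with 60.6% to 69.7%. Among the 8 libraries other than Puberty 2, those led by XM_027961512.2 were 1 of each stage, and their gene sums were 31.2, 11.4 and 16.5 FPKM. The sums of the libraries led by XM_027961511.2 ran from 3.51 to 11.4 FPKM.

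The levels of the conventional genes were set beside the summed markers of cell types. The 6 neuronal markers found in the table summed to 1424 FPKM in Prepuberty 2, where PRKCB was highest and PRKCA lowest among the 8 libraries other than Puberty 2, and to 590 and 456 FPKM in Prepuberty 1 and Postpuberty 1, where PRKCA was highest. Over these 8 libraries the Pearson r of log2 levels with the neuronal sum was 0.61 for PRKCB and -0.79 for PRKCA, and with the sum of 6 oligodendrocyte markers it was -0.86 for PRKCB and 0.52 for PRKCA. With endothelial markers it was -0.77 and 0.69, and with those of the anterior pituitary -0.67 and 0.53, so the opposite signs were not particular to neurons and oligodendrocytes. None of the neuronal and oligodendrocyte markers was listed at 0 in Puberty 2. The neuronal sum ran from 590 to 1424 FPKM at prepuberty, 348 to 1177 at puberty and 456 to 1291 at postpuberty. The part of cell make-up in the PRKCA and PRKCB levels was not tested.

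PRKCE encodes PKC epsilon, a calcium-independent isozyme abundant in brain that binds actin and acts at nerve terminals. It lies on chromosome 3 from 78150489 to 78695898 and had 9 RefSeq mRNAs. The gene sums were 2.49, 14.8 and 5.48 FPKM at prepuberty, 4.84, 0.318 and 11.2 at puberty and 9.62, 9.17 and 8.89 at postpuberty. Postpuberty was the tightest group at 9.23 ± 0.37 FPKM, inside the ranges of the other stages, which had 7.60 ± 6.43 and 5.45 ± 5.47 FPKM.

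XM_004005978.5 led the PRKCE sum in 7 of 9 libraries with 73.0% to 99.7%. It was listed at 0 in Prepuberty 1 and in Puberty 2. In Prepuberty 1 the sum was XM_060412210.1 alone at 2.49 FPKM, an mRNA at or below 0.0379 in every other library, and in Puberty 2 it was XM_060412213.1 alone at 0.318 FPKM. XM_060412215.1 had 1.21 and 0.886 FPKM in Puberty 1 and Puberty 3, then 0.788 in Postpuberty 3, 0.243 in Postpuberty 2 and 0.148 in Prepuberty 2. The other 4 libraries listed it at 0. The remaining 5 mRNAs did not exceed 0.517 FPKM, and 2 of them were listed at 0 throughout.

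PRKCQ encodes PKC theta, known for signalling from the T cell receptor and also present in skeletal muscle and brain. The gene spans chromosome 13 from 11218060 to 11376999 and had 9 RefSeq mRNAs. Its gene sums were 5.47, 8.28 and 5.51 FPKM at prepuberty, 4.83, 0.372 and 6.22 at puberty and 7.63, 7.22 and 7.61 at postpuberty. All postpuberty libraries were above all puberty libraries, also when Puberty 2 is left out, and prepuberty overlapped both. The means were 6.42 ± 1.61, 3.81 ± 3.06 and 7.49 ± 0.23 FPKM, and 5.53 FPKM for puberty without Puberty 2. The markers of T and NK cells did not follow PRKCQ, with an r of -0.01 over the 8 libraries.

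One mRNA carried PRKCQ outside Puberty 2. XM_042230440.2 held 88.7% to 99.9% of the sum in those 8 libraries and was listed at 0 in Puberty 2. There, XM_060397177.1 made up 88.5% of the sum at 0.329 FPKM, against at most 0.109 FPKM elsewhere. The other 7 mRNAs did not exceed 0.721 FPKM, and 3 were listed at 0 throughout.

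PRKCH encodes PKC eta, an isozyme of epithelia that also takes part in lymphocyte signalling. Its locus is chromosome 7 from 71503787 to 71865999, with 2 RefSeq mRNAs. The gene sums were 5.38, 2.96 and 4.40 FPKM at prepuberty, 3.21, 1.62 and 3.59 at puberty and 3.54, 3.01 and 4.23 at postpuberty, and the stages overlapped. XM_027971916.3 led in all 9 libraries with 93.9% to 100% of the sum, Puberty 2 included, and the other mRNA did not exceed 0.220 FPKM.

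PRKCD encodes PKC delta, which acts in cell death and in signalling of B cells and myeloid cells. It lies on chromosome 19 from 47816333 to 47882998 and had 28 RefSeq mRNAs, the most of the family, with the lowest mean gene sum. The sums were 3.06, 1.49 and 1.58 FPKM at prepuberty, 1.62, 1.30 and 1.74 at puberty and 2.14, 1.15 and 3.64 at postpuberty. Prepuberty 1 and Postpuberty 3 were high within their stages, and the stages overlapped. Of all members, PRKCD was the least lowered in Puberty 2.

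No mRNA dominated PRKCD. The one with the highest mean, XM_004018386.6, averaged 0.239 FPKM and led in 2 libraries. XM_060402424.1 had 1.03 FPKM in Puberty 2, which was 79.7% of the sum there, and at most 0.167 FPKM in the others. The mRNAs XM_012099916.5, XM_060402405.1 and XM_060402428.1 each held 10.1% to 12.3% on average and none passed 0.480 FPKM. The remaining 23 mRNAs did not exceed 0.375 FPKM, with 2 listed at 0 in all libraries.

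PRKCD and PRKCH moved with several marker lists across the libraries, those of immune and glial cells among them. Markers of T and NK cells (5 of 6 in the table, none at 0 in all) summed to 27.4 FPKM in Prepuberty 1 and 52.4 in Postpuberty 3, and to 2.27 to 7.58 in the other 7. PRKCD was highest in the same 2 libraries. Over the 8 libraries without Puberty 2, r with the T and NK cell sum was 0.91 for PRKCD and 0.79 for PRKCH, and with the sum of 6 microglial markers it was 0.84 and 0.91. It was also 0.70 and 0.75 with the hypothalamic markers, 0.76 and 0.71 with those of astrocytes and 0.62 and 0.77 with those of endothelium, so the relation was not particular to immune cells. Most of the hypothalamic sum in Prepuberty 1 was CRH. The microglial sum ran from 98.9 to 247 FPKM at prepuberty, 97.4 to 146 at puberty and 67.4 to 169 at postpuberty. The part of these cells in the 2 genes was not tested.

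PRKCZ encodes PKC zeta, an atypical isozyme of cell polarity complexes whose gene also gives rise in brain to a shorter, constantly active form. The gene spans chromosome 12 from 49910473 to 50010810 and had 2 RefSeq mRNAs. The gene sums were 21.1, 20.4 and 14.4 FPKM at prepuberty, 27.6, 9.05 and 18.5 at puberty and 24.7, 39.1 and 17.8 at postpuberty. The stages overlapped, with the highest value in Postpuberty 2 and the lowest in Puberty 2.

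The 2 PRKCZ mRNAs behaved unlike each other in Puberty 2. XM_027975749.2 had 5.98, 10.5 and 5.91 FPKM at prepuberty, 9.28, 8.94 and 8.62 at puberty and 7.21, 11.0 and 7.17 at postpuberty, so that Puberty 2 lay among the rest. XM_015099272.3 had 8.51 to 28.1 FPKM in the 8 other libraries and 0.107 FPKM in Puberty 2. Its share was 1.18% there and 48.5% to 71.8% elsewhere, leading in all of those but Prepuberty 2.

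PRKCI encodes PKC iota, the other atypical isozyme, which binds the polarity proteins PAR3 and PAR6. It lies on chromosome 1 from 217775664 to 217845566 and had 2 RefSeq mRNAs. Its gene sums were 2.77, 4.17 and 3.12 FPKM at prepuberty, 3.22, 1.03 and 2.94 at puberty and 3.17, 2.86 and 2.79 at postpuberty. Outside Puberty 2 these were the most even values of the family, and the stages overlapped. XM_012099411.5 led in all 9 libraries with 76.2% to 100%.

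**Figure D3:**
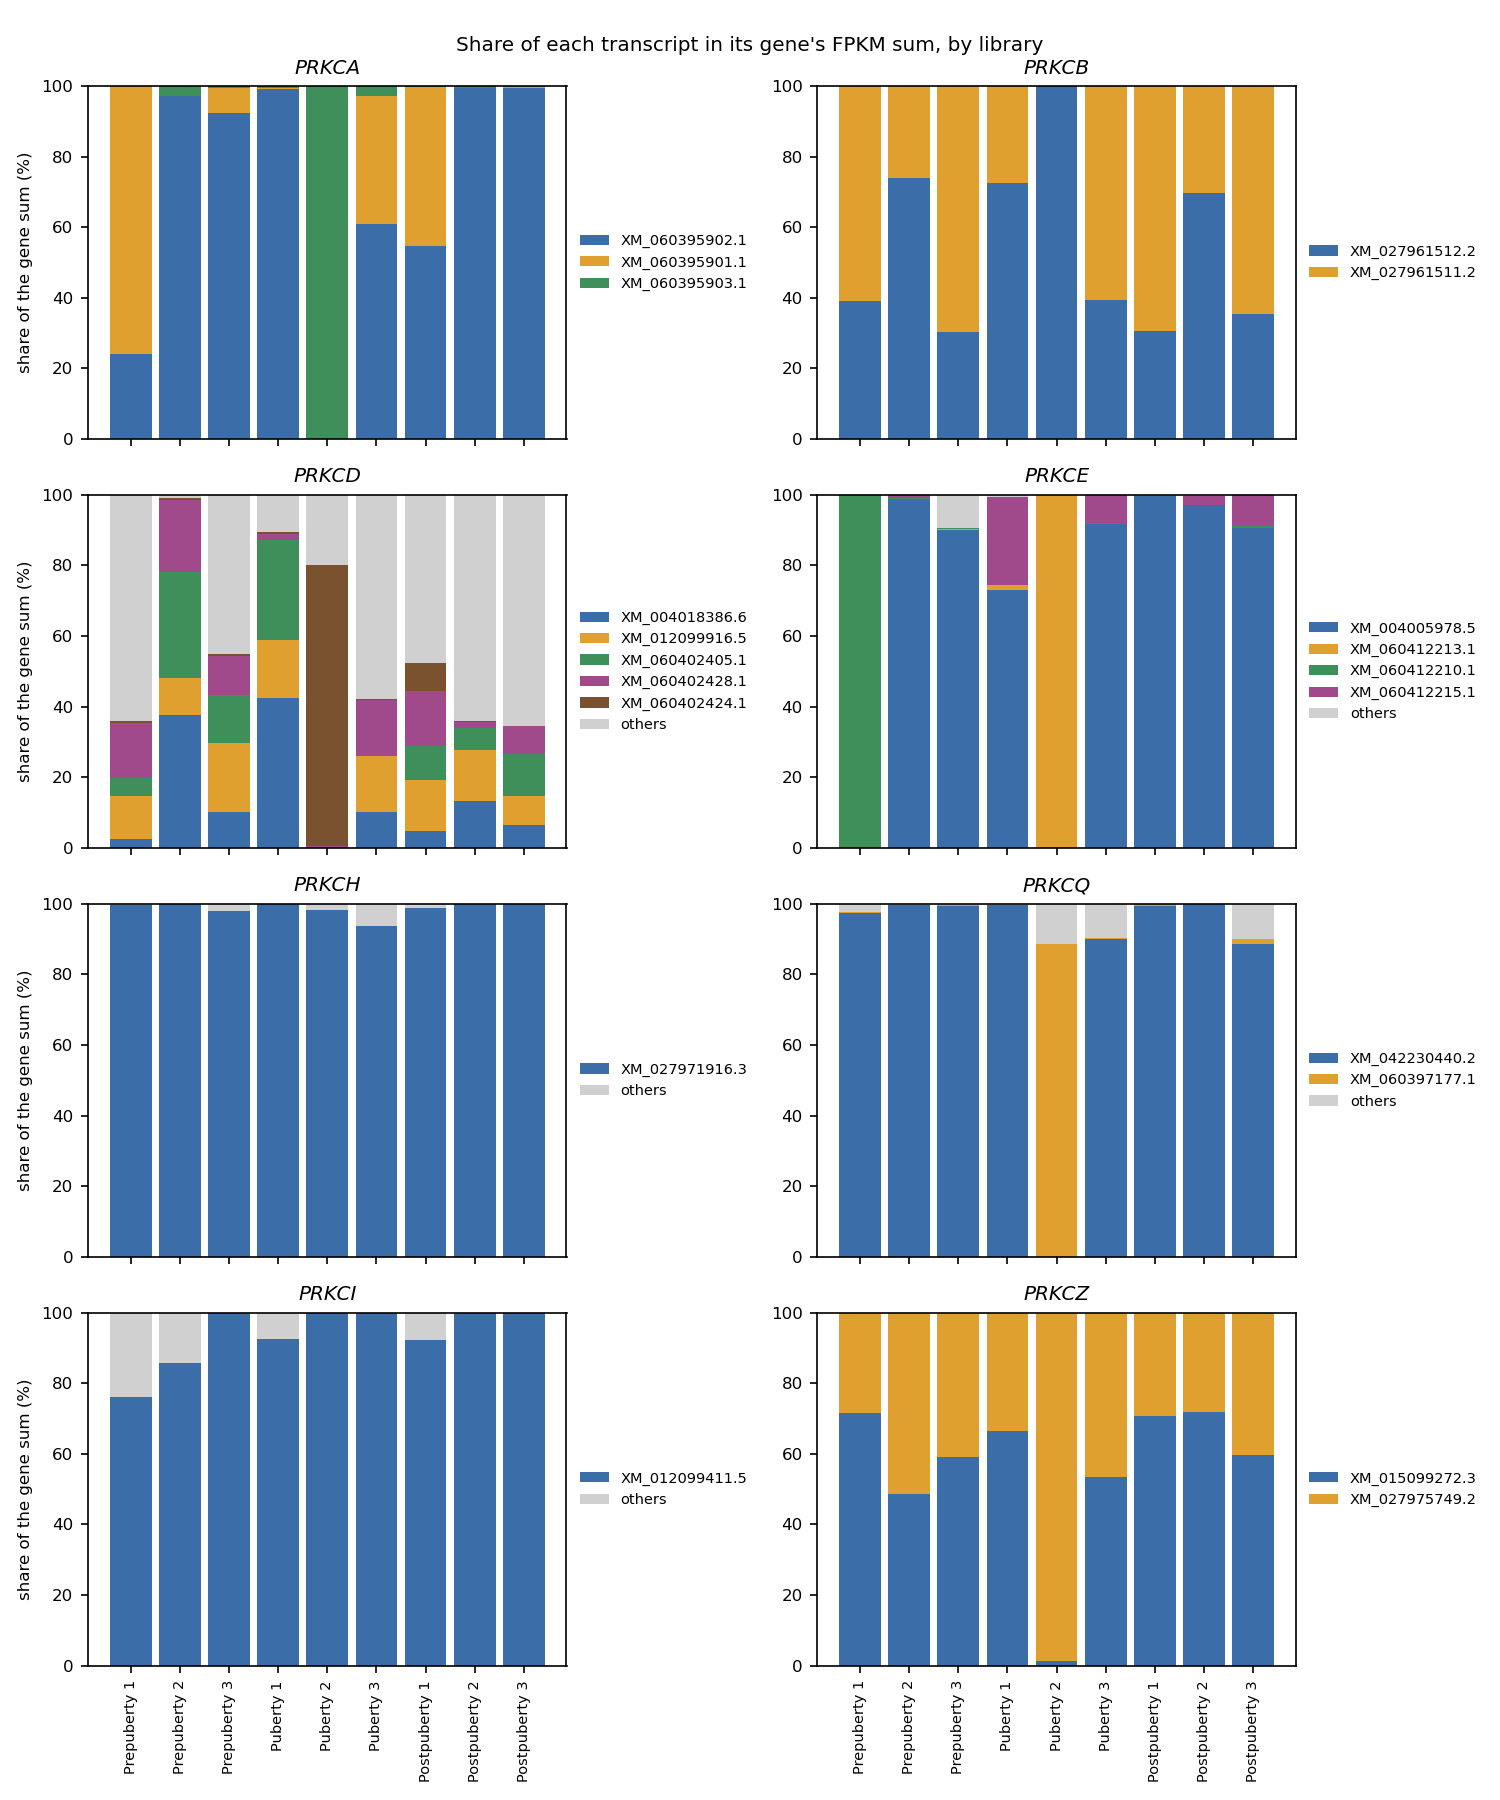
Each bar is 1 library and shows the share in percent (vertical axis) of each mRNA in the FPKM sum of its gene, with the mRNAs outside the naming rule in grey. PRKCH and PRKCI keep the same leading mRNA in all 9 bars, PRKCQ in all but Puberty 2, and PRKCB alternates between 2 mRNAs.

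The share of the leading mRNA was compared between stages for each gene. In 24 exact permutation tests (8 genes, 3 comparisons, two-sided) the smallest Benjamini-Hochberg adjusted p was 0.87. For PRKCE the share of XM_004005978.5 was 63.0% ± 54.7 at prepuberty, 55.0% ± 48.5 at puberty and 95.8% ± 4.65 at postpuberty (SD, n = 3). Such SDs come from libraries in which it was listed at 0, 1 in prepuberty and 1 in puberty. In Puberty 1 and Puberty 3 its share was 73.0% and 91.9%, so the puberty mean rested on Puberty 2. The share tests all included Puberty 2.

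The question of the design, whether expression changes across the onset of estrus, was put to each gene with limma on log2(FPKM + 1). A call needed a log2 fold change of 1 or more in either direction and a Benjamini-Hochberg adjusted p below 0.05 over all 14238 genes that passed a filter on low values. All 8 members passed the filter, and 0 of 8 were called in any of the 3 comparisons, beside 0.0% of all genes tested in each. At an unadjusted p below 0.05, limma gave 0 members in puberty minus prepuberty, 1 in postpuberty minus puberty and 0 in postpuberty minus prepuberty, where the share of all genes was 1.82%, 2.14% and 0.815%. Without Puberty 2 the count of members was 0 in each, and the share of all genes was 1.66%, 2.11% and 1.87%.

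The member with an unadjusted p below 0.05 was PRKCA. Its difference postpuberty minus puberty was 2.34 on the log2 scale (SE 0.958, 95% interval 0.18 to 4.51, limma unadjusted p = 0.0367, Benjamini-Hochberg adjusted p = 0.780). Without Puberty 2 the estimate was 1.66 (SE 1.02, 95% interval -0.73 to 4.06, limma adjusted p = 1.0). PRKCQ differed by 1.13 (SE 0.554, 95% interval -0.12 to 2.39, limma adjusted p = 0.780) in the same comparison, and by 0.39 without Puberty 2. For PRKCE the difference was 1.17 (SE 0.783), and 0.28 without that library. The size of the PRKCQ and PRKCE differences thus rested on Puberty 2.

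PRKCA and PRKCQ were the 2 members whose postpuberty libraries were all above their puberty libraries. The exact permutation test gives p = 0.1 for each, the smallest it can reach with 3 against 3. Of all genes tested, 5.25% were separated in this way with postpuberty higher and 2.07% with postpuberty lower. No member was separated in puberty minus prepuberty or in postpuberty minus prepuberty, where 5.16% and 4.57% of all genes were, in either direction.

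In puberty minus prepuberty all 8 estimates were below 0, with a median of -0.56 beside -0.14 over all genes. Without Puberty 2, 6 of 8 were below 0 and the median was -0.16 beside 0.02. In postpuberty minus puberty all 8 were above 0, with a median of 0.47 beside 0.19, and without Puberty 2 it was 7 of 8 and 0.21 beside 0.03. These comparisons share the puberty libraries, so their opposite signs are not independent. In postpuberty minus prepuberty, which Puberty 2 does not enter as a group, 5 estimates were above 0 and 3 below, with a median of 0.15 beside 0.05. The intervals remained wide. For PRKCB in postpuberty minus puberty without Puberty 2 the estimate was 0.01 with a 95% interval of -1.92 to 1.93, while that of PRKCI was -0.05 with -0.49 to 0.39.

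**Figure D4:**
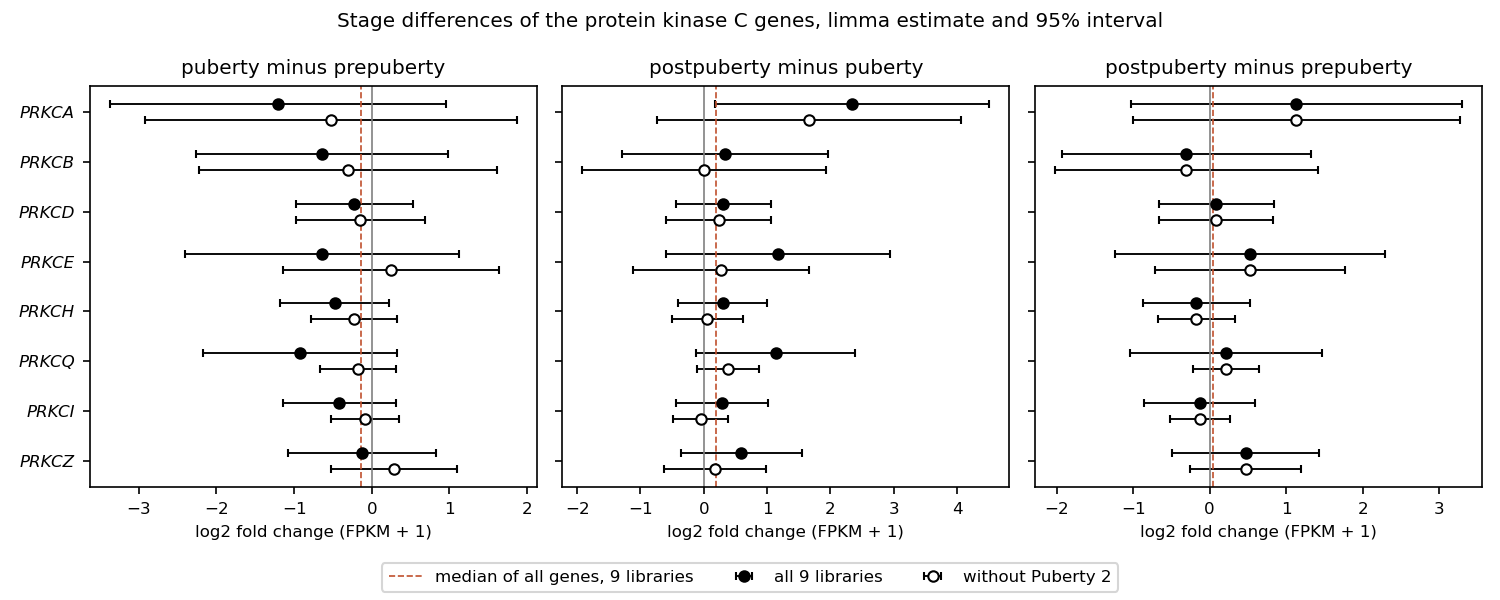
Points give the limma log2 fold change of each PKC gene (horizontal axis, log2 of FPKM + 1) with its 95% interval in the 3 comparisons, filled for all 9 libraries and open without Puberty 2. The dashed line is the median of all genes tested. Only the filled interval of PRKCA in postpuberty minus puberty leaves out 0, from 0.18 to 4.51.

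Of the 57 mRNAs, 12 passed the filter and none was called, among 27674 mRNAs tested of which 0.0% were called. At an unadjusted limma p below 0.05 there were 0 of 12 in puberty minus prepuberty and in postpuberty minus prepuberty, beside 3.1% and 1.72% of all mRNAs tested. In postpuberty minus puberty there was 1 of 12, XM_060395902.1 of PRKCA, beside 3.44%. Its difference was 2.29 (SE 0.750, 95% interval 0.62 to 3.97, limma Benjamini-Hochberg adjusted p = 0.781), and 1.62 (SE 0.707, 95% interval -0.01 to 3.25, limma adjusted p = 1.0) without Puberty 2. Without Puberty 2, 3.35%, 3.48% and 3.17% of all mRNAs were past this p in the 3 comparisons. XM_060395902.1 was past it in postpuberty minus prepuberty, at 1.51 (SE 0.632). XM_060412215.1 of PRKCE was past it in the other two, but it passed the filter only through puberty, where it was highest, so its p-values count for nothing here and are not given.

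The members differed in how evenly they were expressed among ewes. Over the 8 libraries without Puberty 2, the coefficient of variation (CV) was 94.2% for PRKCA and 74.7% for PRKCB, above the CV of 96.6% and 93.9% of the 12281 genes with a mean of at least 1 FPKM. It was 47.2% for PRKCE, 42.0% for PRKCD, 33.5% for PRKCZ, 21.9% for PRKCH, 19.0% for PRKCQ and 14.5% for PRKCI, where the median gene had 22.9%. The highest of the 8 libraries was 35.3 times the lowest for PRKCA and 1.51 times for PRKCI. The conventional genes were thus the most uneven of the family.

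Puberty 2 lowered the members unequally. Its level was 1.42% of the mean of the other 8 libraries for PRKCA, 3.83% for PRKCE and 5.64% for PRKCQ, and 32.9% to 63.1% for the other 5. Transcripts that StringTie assembled are not in these sums, so a level is too low where such a transcript took a gene's reads. They held 12.4% of all FPKM in Puberty 2 and 13.0% to 17.4% in the other libraries, and their share at the PKC genes was not analysed here. The median gene was at 54.3%, and 14.4% of genes were under 10%. It was the lowest library for 6 of 8 members and for 51.9% of all genes. In PRKCA, PRKCE, PRKCQ and PRKCD the mRNA with the highest mean was listed at 0 there, and another mRNA of the gene with at most 1.03 FPKM made up most of the sum. The part of library quality in these values was not tested.

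**Figure D5:**
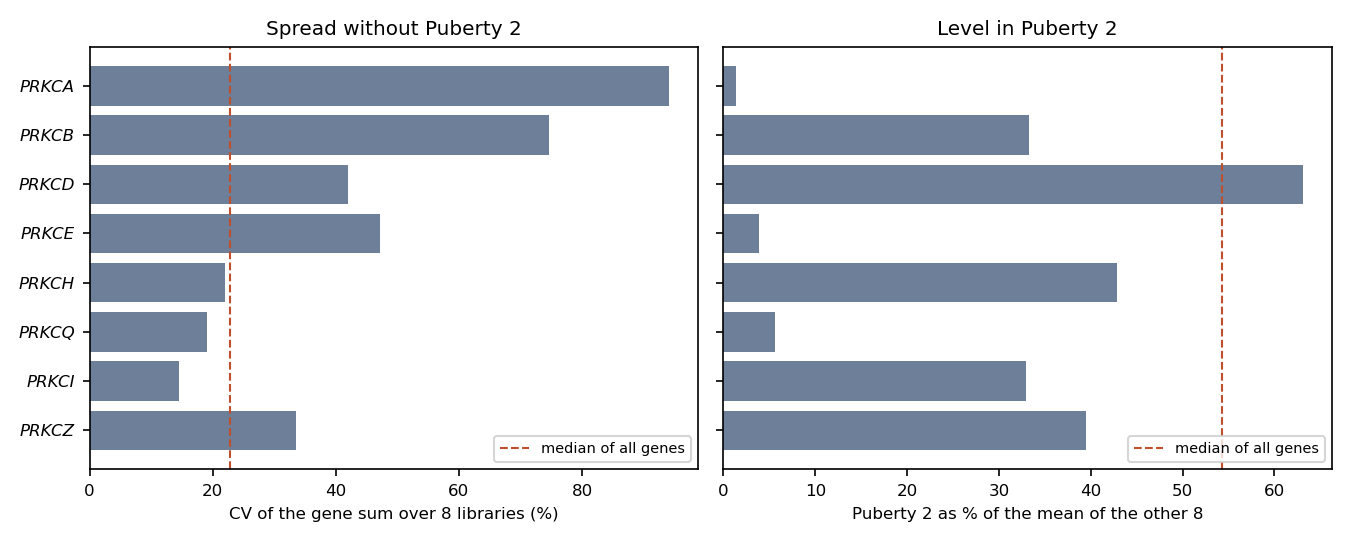
Left, the CV in percent of each gene sum over the 8 libraries without Puberty 2, and right, the level in Puberty 2 as a percentage of the mean of the other 8. Dashed lines mark the median of all genes, 22.9% and 54.3%, and the bars of PRKCA, PRKCE and PRKCQ on the right are the shortest at 1.42% to 5.64%.

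The steps around the kinases were followed in 5 lists of genes. Of the activators of PKC (Gq subunits, phospholipases C, receptors and PDPK1, the kinase that primes PKC) 13 of 18 passed the filter, of the diacylglycerol kinases that remove diacylglycerol 9 of 10, of scaffolds and regulators 16 of 16, of substrates 13 of 13, and of related kinases and other diacylglycerol receptors 14 of 16. None of these genes was called by limma in any comparison. Outside the substrates, an unadjusted limma p below 0.05 was reached with all 9 libraries by 0 genes in puberty minus prepuberty, 0 in postpuberty minus puberty and 1 in postpuberty minus prepuberty (DGKE). Without Puberty 2 it was reached by DGKE in the first, by PLCH1 in the second and by both in the last, and neither was called. The share of all genes past this p was 1.82%, 2.14% and 0.815% with all 9 libraries. Without Puberty 2 it was 1.66%, 2.11% and 1.87%. GNRHR and KISS1R, the receptors for gonadotropin-releasing hormone and kisspeptin, did not exceed 0.121 and 0.214 FPKM.

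GNAQ, the alpha subunit of Gq, had 11.2, 15.0 and 11.3 FPKM at prepuberty, 12.6, 7.27 and 10.6 at puberty and 12.5, 12.1 and 10.6 at postpuberty. Its difference postpuberty minus puberty was 0.22 (SE 0.261), and 0.02 without Puberty 2. PLCH1, a phospholipase C, had 1.29, 1.30 and 1.82 FPKM at prepuberty, 1.33, 0 and 1.68 at puberty and 0.0532, 1.13 and 0.0424 at postpuberty. PLCH1 was thus lower in every postpuberty than in every prepuberty library, by a narrow margin. Of all genes tested, 4.57% were separated in this comparison, in either direction. PLCD3 and GNA14 ranged over 3.87 to 8.44 and 0.00158 to 1.01 FPKM with overlapping stages.

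DGKE, a diacylglycerol kinase, had 1.23, 1.71 and 0.240 FPKM at prepuberty, 3.19, 2.02 and 4.06 at puberty and 5.46, 7.63 and 1.85 at postpuberty. Each prepuberty library was below every library of the later stages, by a narrow margin. Of all genes tested, 5.16% were separated between puberty and prepuberty and 4.57% between postpuberty and prepuberty, in either direction. DGKE and PLCH1 are named because their p was among the smallest of their lists. The difference postpuberty minus prepuberty was 1.47 (SE 0.465, limma unadjusted p = 0.0114, Benjamini-Hochberg adjusted p = 1.0), and puberty minus prepuberty 1.03 (SE 0.465), or 1.23 without Puberty 2. DGKZ and DGKH had overlapping stages at 6.93 to 21.4 and 0.223 to 1.81 FPKM.

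Among substrates, MARCKS, the classic PKC substrate at the membrane, had 30.7 to 78.4 FPKM and overlapping stages, as had GAP43, a growth cone protein, at 36.8 to 171 FPKM.

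Of the scaffolds, AKAP12 was listed at 0 in Puberty 2 and had 11.4 to 25.2 FPKM elsewhere, while PPP1R14A, a phosphatase inhibitor activated by PKC, had 1432 FPKM in Puberty 2 and 115 to 255 elsewhere. PARD3, the polarity scaffold of the atypical isozymes, had 1.86 to 5.02 FPKM. In the list of relatives, CHN1, a diacylglycerol-binding Rac regulator, was listed at 0 in Puberty 2 and had 79.5 FPKM in Prepuberty 2 against 8.17 to 26.7 in the rest. PRKD3 did not exceed 0.901 FPKM.

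The median log2 differences of the lists differed in how close they lay to that of all genes. In puberty minus prepuberty they were -0.29 for activators, -0.29 for diacylglycerol kinases, -0.15 for scaffolds, -0.33 for substrates and -0.05 for relatives, beside -0.14 for all genes and -0.56 for the 8 members. In postpuberty minus puberty they were 0.22 for activators, 0.35 for diacylglycerol kinases, 0.21 for scaffolds, 0.50 for substrates and 0.21 for relatives, beside 0.19 for all genes and 0.47 for the 8 members. Without Puberty 2 the medians in puberty minus prepuberty turned above 0 for all 5 lists, to 0.03, 0.05, 0.12, 0.0044 and 0.09, beside 0.02 for all genes and -0.16 for the members. In postpuberty minus puberty they were then 0.02, 0.09, 0.04, 0.17 and -0.04, beside 0.03 and 0.21. With all 9 libraries the substrates' median thus exceeded that of the members in postpuberty minus puberty, and without Puberty 2 it did not.

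The genes most like each member were named by Pearson's r of log2(FPKM + 1) over the 8 libraries without Puberty 2, among 12281 genes, as a description. They were EVI2A (r = 0.97) and UBXN7 (0.96) for PRKCA, PPIL1 and PLPPR4 (both 0.98) for PRKCB, MILR1 (0.99) and DERL3 (0.98) for PRKCD, and SEPTIN6 and STRADA (both 0.96) for PRKCE. For PRKCH they were RESF1 (0.99) and ACAP2 (0.98), for PRKCI ARHGAP26 and PARP6 (both 0.95), and for PRKCZ SCHIP1 (0.96) and RNF41 (0.94). Over all 9 libraries these r stayed between 0.76 and 0.99. PRKCQ was the exception, since GP1BB (0.98) and UBE2J2 (0.96) turned to -0.63 and -0.72 with Puberty 2, where both were at their highest. Each is the highest of 12281 values over 8 libraries, so no p is given. Among the members themselves, r over the 8 libraries ran from -0.72 for PRKCE with PRKCH to 0.79 for PRKCE with PRKCQ.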

How the data were processed

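Hypothalamus mRNA of 9 Dolang ewes was sequenced as paired reads after poly-A selection. The submitters' processing notes name Trimmomatic 0.32, HISAT2 and StringTie, and the genome was ARS-UI_Ramb_v3.0. The authors deposited 1 table of FPKM values per transcript. Its name speaks of raw counts, but the values are not whole numbers, so a count test was not used. Read depth is unknown from the table, and no counting interval was given. RefSeq symbols matched 76682 of 76684 mRNAs. Transcripts assembled by StringTie carry no gene name in the table and are not in the gene sums, nor are strand and shared reads resolved.

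Sums were fitted with limma 3.58.1 (R 4.3.3) on log2(FPKM + 1), 3 stages and 9 libraries in 1 fit with a trend of variance, for genes or mRNAs with a mean of at least 0.5 FPKM in 1 stage. The code was tested on simulated data. Exact tests came from scipy 1.17.1, sums and shares from pandas 2.3.3 and numpy 2.4.6 under Python 3.11.15, and plots from matplotlib 3.10.9. The members, gene lists and tests were chosen with earlier results of these data known, and the marker correlations were added after the values were seen. Named mRNAs hold at least 10% of their gene sum on average or reach 1 FPKM. From each list up to 3 genes with the smallest p are named, with GNAQ and MARCKS. Some of the genes that this rule names are not reported here. Replicate numbers do not pair ewes. Alternatives covered the pseudocount, filter, scaling, variance, fold minimum, replicate block and leaving out each library. The p-values measure the spread between 3 ewes per stage.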

Additional observations from a re-analysis of the deposited data

How the results depend on the processing

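No member was called under any of the alternatives run, and over the 384 fits of single members (8 genes, 3 comparisons, 16 alternatives) the lowest limma adjusted p was 0.516. In 373 of them the estimate kept its sign. It turned in 11, in all of which 1 library was left out. In puberty minus prepuberty, leaving out each library gave PRKCE -1.36 to 0.25 and PRKCZ -0.47 to 0.29, above 0 without Puberty 2, PRKCB -1.27 to 0.055, above 0 without Prepuberty 2, and PRKCD -0.35 to 0.0040, above 0 without Prepuberty 1. In postpuberty minus puberty, PRKCI ran from -0.052 without Puberty 2 to 0.48 and PRKCB from -0.072 without Postpuberty 2 to 0.91. In postpuberty minus prepuberty, PRKCB ran from -0.93 to 0.39, above 0 without Prepuberty 2 and at 0.27 without Postpuberty 1. PRKCD ran from -0.19 without Postpuberty 3 to 0.36, and was -0.040 and -0.014 without Prepuberty 2 and Prepuberty 3. PRKCA in postpuberty minus puberty ran from 1.66 to 3.17 over its alternatives.

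The number of mRNAs called in puberty minus prepuberty ranged from 0 to 1 when each library was left out, with 1 without Prepuberty 1. The number of genes with the same leading mRNA in every library ranged from 2 to 3, with 3 without Puberty 2, where PRKCQ joined PRKCH and PRKCI. The replicate number as a block changed no call, with 281, 327 and 103 genes at an unadjusted p below 0.05 beside 259, 305 and 116 without the block. Libraries with the same number had an r of their deviations from -0.31 to 0.51 (median -0.083), above 0.1 in 2 of 9 pairs. Libraries with other numbers had -0.56 to 0.31 (median 0.029), above 0.1 in 5 of 18 pairs. The highest r, 0.51, was that of Prepuberty 2 with Postpuberty 2. Scaling to equal totals moved the median of all genes in postpuberty minus puberty from 0.19 to 0.30, and scaling to equal upper quartiles moved it to 0.098. Read depth is unknown from FPKM, so precision is given by the spread of 3 ewes per stage.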
